A study of Canis lupus familiaris with 22 samples.

Results

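Fibrillar collagens and matrix proteoglycans were examined in canine mammary tumour (CMT) tissue, on the 6 genes of this kind that were chosen for description: COL2A1, ACAN, COL1A1, COL1A2, BGN and DCN. The members were the probes whose target is the canine RefSeq transcript of one of these genes, which gave 18 of the 43603 probes of the array, and all 18 were compared. COL2A1 and ACAN, the cartilage genes, had 3 and 2 probes, and the genes of fibrous connective tissue had 13 (COL1A1 4, COL1A2 6, BGN 1 and DCN 2). The probes of a gene are numbered by their mean level over the dogs, and the brightest is called probe 1.

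Type II collagen, encoded by COL2A1, forms the fibrils of cartilage, and aggrecan, encoded by ACAN, is the large proteoglycan that fills the space between them and holds water. Type I collagen is built from the chains that COL1A1 and COL1A2 encode and is the main fibre of skin, tendon, bone and the stroma of the mammary gland, while biglycan (BGN) and decorin (DCN) are small leucine-rich proteoglycans that bind collagen fibres. Mammary tumours of dogs are known for their stroma and for mixed tumours in which cartilage or bone forms beside the epithelium.

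The study set surgically resected malignant and benign CMT tissues of dogs with mammary cancer against healthy mammary gland. Total RNA of whole tissue was labelled with Cy3 and hybridised to 1-colour Agilent canine arrays, and scanner values were analysed here for 19 arrays, 9 of 5 malignant, 6 of 3 benign and 4 of 2 healthy dogs. No treatment, strain or age is given in the labels, and the tumours were clinical cases of several histological types. The labels of the arrays give only the diagnosis. The study's own list of histology codes gives myoepithelioma for the tissue coded malignant 3, lipid rich carcinoma for malignant 5 and fibrosarcoma for malignant 6, but this list holds more benign and healthy tissues than the labels, and the codes were not used as groups.

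The level of a probe is the log2 processed signal minus the 75th percentile of its array, so that 0 stands for that percentile, and a dog's value is the mean of its arrays. Levels were compared between dogs at the same probe, never between probes. Of all probes, 62.2% to 83.2% were well above background on each array, and the 75th percentile was 6.38 to 45.2 times the background, lowest on both arrays of malignant dog 3 (6.38 and 8.46). The arrays of a dog correlated at r 0.982 to 0.990, and at the member probes the median difference between them was 0.04 to 0.36 on the log2 scale, with a largest difference of 1.28. Malignant dog 5 was measured on 1 array, the only array on its slide, its scanner and its scan day, so that its level cannot be told apart from any of these. Markers of exocrine pancreas, of which 6 of 16 listed were measured, had a mean level of 8.95 and 5.65 in healthy dogs 1 and 2 and of -4.05 to -2.54 in the tumours. RNA of pancreatic enzymes was thus measured in both tissues labelled healthy mammary gland, and its part in the comparisons with healthy tissue was not tested.

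COL2A1 at probe 1 had the widest range of the 18 probes, while its other probes had a narrower range than BGN. At probe 1 (A_11_P0000020143) its level was -0.11, -0.03, 7.39, 0.98 and -7.62 in malignant dogs 1 to 5. In benign dogs 1 to 3 it was 1.61, 0.89 and -8.02. In healthy dogs 1 and 2 it was -6.95 and -2.35. Malignant dog 3 was thus far above all others, 5 tumours lay near 0, and malignant dog 5, benign dog 3 and healthy dog 1 formed the low end, with no array well above background. Against these low dogs the level in malignant dog 3 was 7046-fold, 9165-fold and 4371-fold higher, when their signal was set to the lowest signal well above background on the same arrays. That setting is not a strict limit, since an undetected signal can lie above it, as in healthy dog 1 at probe 3 (-4.46). Against benign dog 1, the next highest, it was 55.2-fold higher.

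The other COL2A1 probes showed malignant dog 3 at the top as well but did not separate the remaining dogs in the same way. At probe 2 (A_11_P050066, the mean of 5 spots), malignant dog 3 had a level of 3.37, while the other dogs lay between -4.79 (benign dog 3) and -1.63 (benign dog 1). At probe 3 (A_11_P053401) malignant dog 3 had 2.72 and the other dogs lay between -5.04 and -4.07. Healthy dog 1, at -4.46, was not well above background there on either array. Probe 3 therefore set malignant dog 3 apart by 6.80 on the log2 scale (111-fold) from the next dog and left the other 9 dogs within 1 unit of each other. Probe 1 spread the same 9 dogs over a range of 7.37, with the undetected dogs set to the lowest signal well above background. Over the 10 dogs the COL2A1 probes correlated at r 0.64 to 0.91. The lowest signal well above background was -4.48 and -4.55 on the arrays of malignant dog 3, and -5.31 to -6.20 on those of malignant dogs 1, 2 and 4, close to the levels of probe 3 in most dogs.

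**Figure D1:**
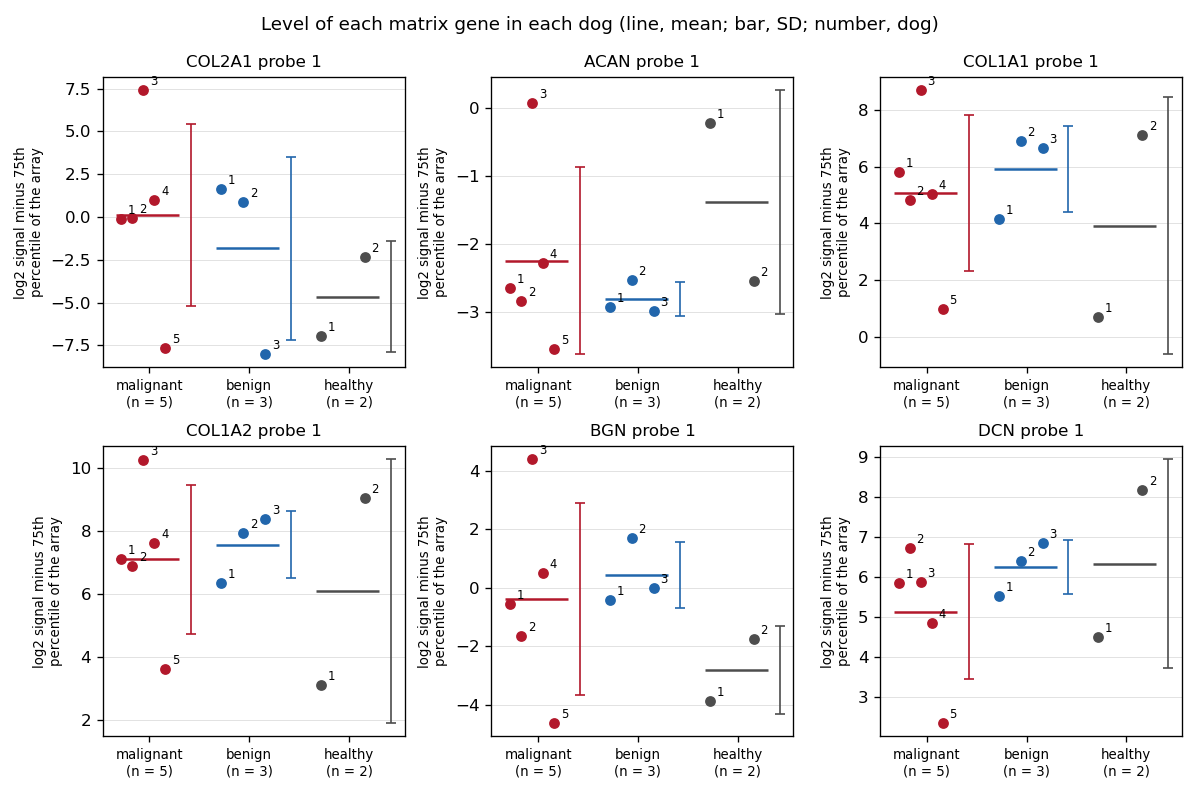
Level of probe 1 of COL2A1, ACAN, COL1A1, COL1A2, BGN and DCN in each dog, as the log2 signal minus the 75th percentile of the array. Points are dogs with their number, lines are group means and bars are SD. Malignant dog 3 is the highest point in every panel but that of DCN, where healthy dog 2 is highest at 8.17.

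Between groups, the COL2A1 level at probe 1 was 0.12 ± 5.33 (SD, n = 5) in malignant, -1.84 ± 5.36 (SD, n = 3) in benign and -4.65 ± 3.25 (SD, n = 2) in healthy tissue. These neighbours in the order of means did not differ beyond their spread, and the groups overlapped. The benign minus healthy difference was 2.81 (SE 3.79, adjusted p = 0.954) and the malignant minus benign difference was 1.96 (SE 3.03, adjusted p = 1.00) in limma's fit with Benjamini-Hochberg adjustment over 35309 probes. The malignant minus healthy difference was 4.77 (SE 3.47, adjusted p = 0.943, limma) with a 95% interval of -2.89 to 12.44, and it was 2.96 when malignant dog 3 was left out. Leaving out healthy dog 1 gave 2.47, and leaving out healthy dog 2 gave 7.08. These values use the measured signal of the dogs that were not above background, and with that signal raised to the lowest signal well above background the difference was 4.09. For benign minus healthy tissue it then was 2.44, and it ran from 0.51 (without healthy dog 1) to 5.90 (without benign dog 3) on the measured signals. At probe 3, where only malignant dog 3 stood out, the malignant minus healthy difference was 1.18 with that dog and -0.29 without it.

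ACAN was spread far less. At probe 1 (A_11_P054811) its level was -2.66, -2.84, 0.08, -2.29 and -3.54 in malignant dogs 1 to 5. In the benign dogs it was -2.93, -2.53 and -2.99. In the healthy dogs it was -0.22 and -2.56. Malignant dog 3 and healthy dog 1 were high, 0.30 apart, and the other 8 dogs lay together between -3.54 and -2.29. At probe 2 (A_11_P0000024093) malignant dog 3 had 0.58, followed by malignant dog 4 at -1.97 and benign dog 1 at -2.17, and healthy dog 1 was at -3.18. The 2 ACAN probes correlated at r 0.70 over the 10 dogs, and healthy dog 1 ranked 2 at probe 1 and 4 at probe 2. The malignant minus healthy difference was -0.86 (SE 0.91) at probe 1 and 0.78 at probe 2, so the probes disagreed in sign, and neither passed the test (adjusted p = 0.956 for the first, limma). The benign minus healthy difference was -1.43 (SE 0.99, adjusted p = 0.851, limma) at probe 1, with all 3 benign dogs near the level of healthy dog 2.

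The genes of type I collagen moved together from dog to dog, and at probe 1 they were above the 75th percentile of the array in every dog. At COL1A1 probes 3 and 4 healthy dog 1 was well above background on only 1 of its 2 arrays. COL1A1 at probe 1 (A_11_P050631) had a level of 5.82, 4.83, 8.70, 5.04 and 0.98 in malignant dogs 1 to 5. Benign dogs 1 to 3 had 4.16, 6.90 and 6.66. Healthy dogs 1 and 2 had 0.71 and 7.14. Malignant dog 3 was highest, healthy dog 1 and malignant dog 5 were lowest, and both healthy dogs lay inside or next to the range of the tumours.

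For COL1A2 at probe 1 (A_11_P201543) the malignant dogs had 7.11, 6.89, 10.24, 7.62 and 3.64. The benign dogs had 6.36, 7.95 and 8.39. The healthy dogs had 3.13 and 9.05. The order was close to that of COL1A1, with the same dogs at both ends, and the brightest probes of the pair correlated at r 0.99 over the 10 dogs. All 10 probes of COL1A1 and COL1A2 had malignant dog 3 as the highest dog, by 1.07 to 3.95 over the next, and the probes of 1 gene correlated at r 0.79 to 0.98 for COL1A1 and 0.91 to 1.00 for COL1A2.

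For type I collagen the sign of the difference between tumour and healthy tissue depended on which healthy dog was used. Healthy dog 2 was 86.0-fold above healthy dog 1 at COL1A1 probe 1 and 60.3-fold above it at COL1A2 probe 1. The malignant minus healthy difference at COL1A1 probe 1 was 1.15 (SE 1.95, adjusted p = 0.974, limma). Leaving out healthy dog 1 turned it to -2.06, and leaving out healthy dog 2 gave 4.37. At COL1A2 probe 1 it was 1.01 (SE 1.70, adjusted p = 0.974, limma), with -1.95 and 3.97 when these dogs were left out in turn. The benign minus healthy differences were 1.99 (SE 2.12) and 1.47 (SE 1.85) at the same probes, and turned to -1.23 and -1.48 without healthy dog 1. Benign and malignant tumours differed by -0.83 (SE 1.70) at COL1A1 probe 1 and by -0.46 (SE 1.48) at COL1A2 probe 1, which was less than the spread between dogs.

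Biglycan was the member gene whose tumour levels were most often above those of healthy tissue. At its probe (A_11_P0000019947) the level was -0.56, -1.65, 4.39, 0.49 and -4.63 in malignant dogs 1 to 5. It was -0.43, 1.71 and -0.01 in benign dogs 1 to 3. It was -3.87 and -1.76 in healthy dogs 1 and 2. All 3 benign dogs and 4 of 5 malignant dogs were above both healthy dogs, and malignant dog 5 was below them. The benign minus healthy difference was 3.24 (SE 1.98, 9.46-fold) with a 95% interval of -1.13 to 7.61, and it did not pass the test (p = 0.130 before and 0.819 after Benjamini-Hochberg adjustment, limma). The malignant minus healthy difference was 2.42 (SE 1.81, adjusted p = 0.943, limma). Of the 18 member probes, this was the only one at which benign and healthy dogs did not overlap, and 12.4% of all probes had every benign dog above every healthy dog. With each dog left out in turn BGN ranged from 2.19 to 4.30 in benign and from 1.23 (without malignant dog 3) to 3.48 in malignant tissue, both relative to healthy tissue, and with normexp background correction the differences were 2.04 and 1.57.

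Decorin did not follow the other genes. At probe 1 (A_11_P146158) its level was 5.86, 6.72, 5.87, 4.86 and 2.36 in the malignant dogs. The benign dogs had 5.52, 6.39 and 6.84. The healthy dogs had 4.5 and 8.17. Malignant dog 3, the top dog for the other 5 genes, was 0.01 from the median of the other dogs, and healthy dog 2 was highest. Probe 2 (A_11_P0000019946) gave 3.07, 4.44, 2.35, 0.88 and -0.96 in malignant, 2.72, 4.06 and 4.09 in benign, and 1.46 and 6.47 in healthy dogs, and correlated with probe 1 at r 0.97. The order of dogs was the same at both ends, with malignant dog 5 lowest and healthy dog 2 highest. The malignant minus benign difference was -1.12 (SE 1.03) at probe 1 and -1.67 at probe 2, and the malignant minus healthy differences were -1.20 (SE 1.18) and -2.01. None passed the test (adjusted p of 0.943 to 1.00, limma), and without healthy dog 1 the malignant minus healthy difference at probe 1 was -3.04, against 0.63 without healthy dog 2.

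**Figure D2:**
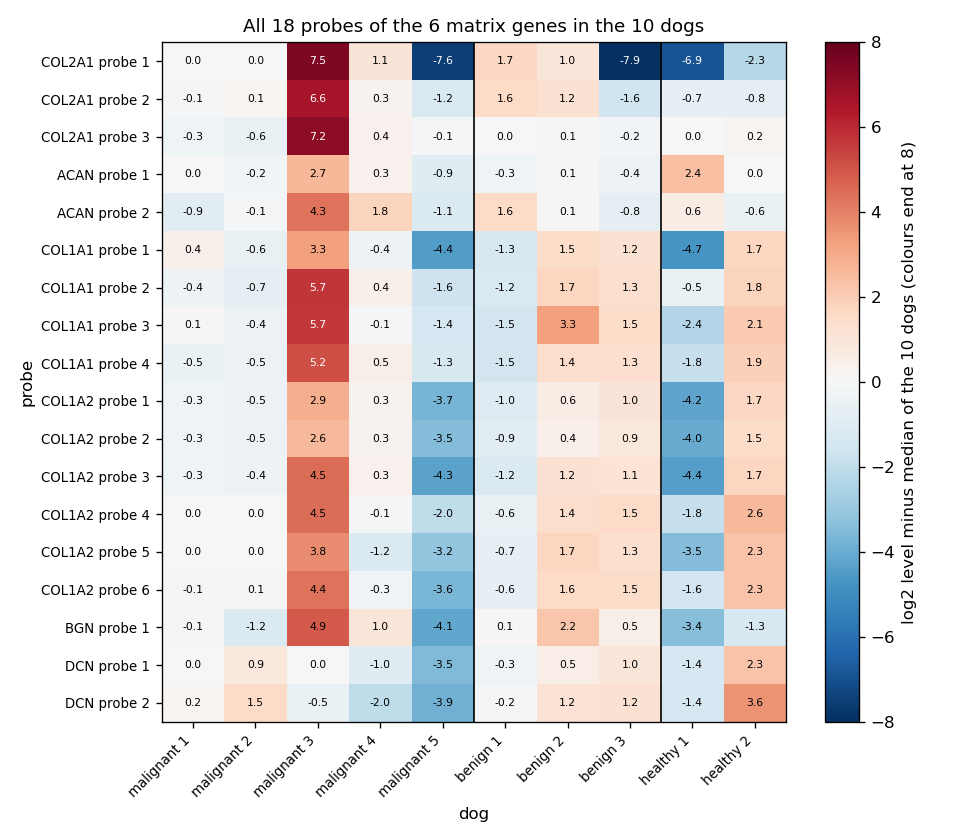
Level of each of the 18 probes (rows) in each of the 10 dogs (columns), as the log2 level minus the median of the 10 dogs. Malignant dog 3 is far above the median at all rows but those of DCN, and malignant dog 5 and healthy dog 1 are negative at nearly all rows of COL1A1, COL1A2, BGN and DCN.

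Counted over all 18 probes, malignant dog 3 was the highest of the 10 dogs at 16, and at 15 of them by at least 1 on the log2 scale. Over all probes tested it was the highest dog at 21.3% and highest by at least 1 at 5.13%. Malignant dog 5 was the lowest dog at 8 of the 18 probes, against 15.4% of all probes. Healthy dog 2 was above healthy dog 1 by at least 4 at 9 of the 18 probes, 8 of them fibrous, against 2.25% of all probes, and the median absolute difference between both healthy dogs over all probes was 0.90. For ACAN the healthy dog 2 minus healthy dog 1 difference was -2.33 at probe 1 and -1.12 at probe 2. For COL2A1 it was -0.15 at probe 2 and 0.26 at probe 3. At COL2A1 probe 1 it was 4.60, with healthy dog 1 not above background. The members were read with earlier results of these data known, and these counts describe single dogs without a test.

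No member probe was called in any comparison. In malignant against healthy tissue 0 of 18 passed an adjusted p of 0.05 in limma's fit, where 0.416% of all probes did, all of them lower in the tumours. In benign against healthy tissue 0 of 18 passed, against 0.38% of all probes, and in malignant against benign tissue 0 of 18, against 0%. At an unadjusted p of 0.05 the count was also 0 of 18 in each comparison, against 5.81%, 6.79% and 1.8% of all probes in the same order, and by the methods' t-test on the same levels it was 0 as well. The log2 difference was above 0 at 14 of 18 probes in malignant and at 13 of 18 in benign tissue relative to healthy tissue, and at 7 of 18 in malignant relative to benign tissue, with 54.1%, 51.4% and 54.4% over all probes. Type I collagen supplies 10 of the 18 probes, which move together, so these counts are not of independent probes. Without healthy dog 1 all 10 were below 0, from -2.39 to -1.09 in malignant and from -1.82 to -0.99 in benign minus healthy tissue. Without healthy dog 2 all 10 were above 0 in both. The median difference was 0.85, 0.80 and -0.36 for the members and 0.07, 0.03 and 0.06 for all probes tested. The standard errors of the member differences ran from 0.79 to 3.79. The first 2 comparisons share the healthy dogs.

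**Figure D3:**
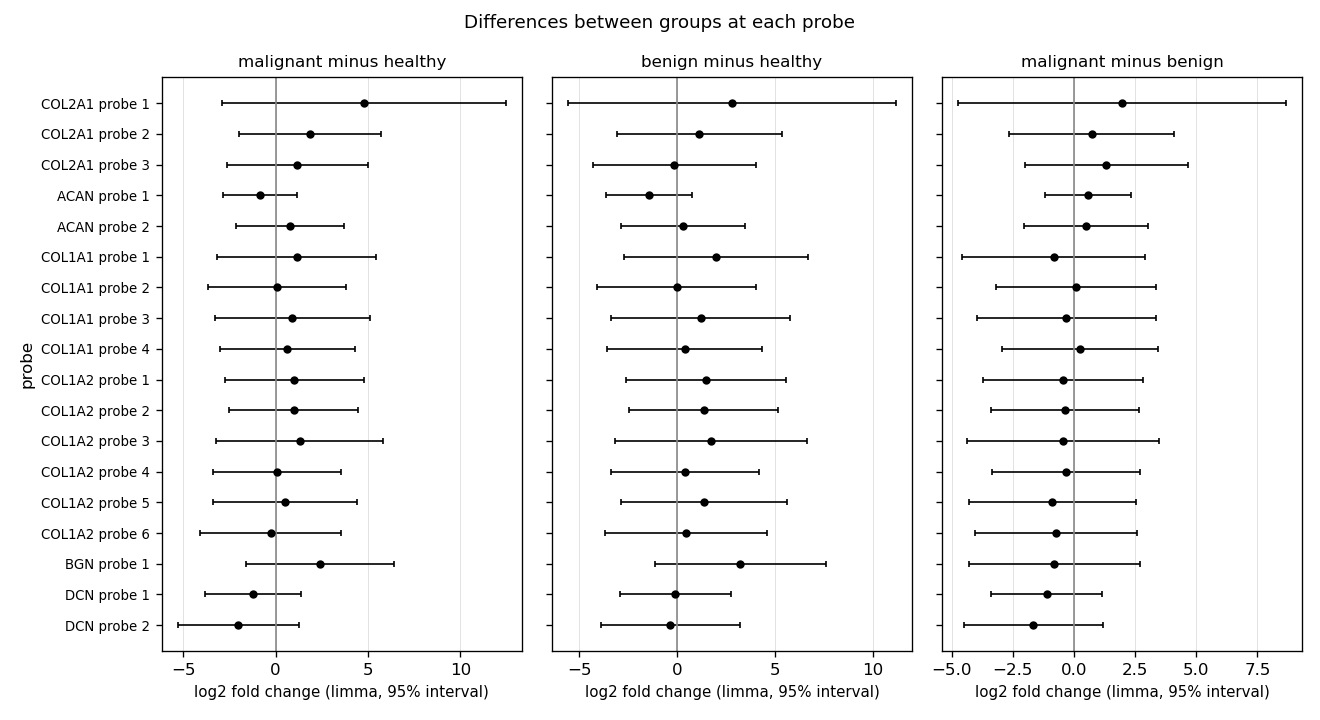
Log2 fold change of each of the 18 probes in the 3 comparisons, with the 95% interval of limma's fit over 10 dogs. All 54 intervals include 0, and those of COL2A1 probe 1 are the widest.

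All slides but that of malignant dog 5 held arrays of more than 1 group, so the differences were also read within slides and with the slide as a block. On the slides that held both groups, BGN was higher in malignant than in healthy tissue by 2.41, 2.54 and 2.18, and higher in benign than in healthy tissue by 2.58 and 1.46. With the slide as a block these differences were 3.39 and 3.18. The slides shared with healthy tissue held only malignant dogs 1, 2 and 4 and benign dogs 1 and 3. Some dogs recurred between these slides, so the values within slides are not independent. Malignant dog 5, alone on its slide, does not enter the contrasts of the block. Without that dog the malignant minus healthy difference of BGN was 3.48 in the main fit. COL2A1 at probe 1 was higher in malignant than in healthy tissue by 4.66, 6.70 and 3.30 on the same slides and by 6.68 with the block, while its benign minus healthy difference was 6.45 and -0.93 within slides and 2.81 with the block. Healthy dog 1, whose level enters all of these but those of the last slide, was not above background at this probe. COL1A1 at probe 1 gave 2.0, 4.51 and -2.08 within slides, where the last slide held healthy dog 2 alone of the healthy dogs, and 2.15 with the block. COL1A2 at probe 1 gave 1.1, 3.79 and -1.43, with 1.84 for the block. For DCN at probe 1 the values were -0.45, 1.77 and -3.24, and -0.48 with the block, and for ACAN at probe 1 they were -0.91, -2.80 and -0.13, and -0.59 with the block.

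Cartilage and fibrous matrix genes were set against each other in each dog by centring probe 1 of each gene on its mean over the 10 dogs and taking the mean of COL2A1 and ACAN minus the mean of COL1A1, COL1A2, BGN and DCN. The difference was 0.20, 0.50, 2.58, 0.98 and -0.03 in malignant dogs 1 to 5. It was 1.57, -0.42 and -4.84 in the benign dogs. It was 1.43 and -1.96 in the healthy dogs. Malignant dog 3 was raised in both kinds of gene, with a cartilage mean of 5.57 and a fibrous mean of 3.0, and malignant dog 5 was low in both, with -3.75 and -3.72. Benign dog 3 had a cartilage mean of -3.67 and a fibrous mean of 1.17, but its COL2A1 level was not above background on either array, and its ACAN deviation was -0.74. The COL2A1 levels of malignant dog 5 and healthy dog 1 were not above background either. The group means were 0.84 ± 1.04 (SD, n = 5) in malignant, -1.23 ± 3.28 (SD, n = 3) in benign and -0.27 ± 2.40 (SD, n = 2) in healthy tissue, and the groups overlapped. The order of the group means rested on single dogs. For this value benign minus healthy tissue, -0.96, was 0.84 without benign dog 3 and 0.74 without healthy dog 1. The malignant minus healthy difference, 1.11, turned to -0.59 when healthy dog 2 was left out, and was 2.81 without the other. The malignant minus benign difference, 2.07, was 0.27 without benign dog 3. The cartilage mean rests mostly on COL2A1, whose SD over dogs at probe 1 was 4.89, against 1.20 for ACAN.

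**Figure D4:**
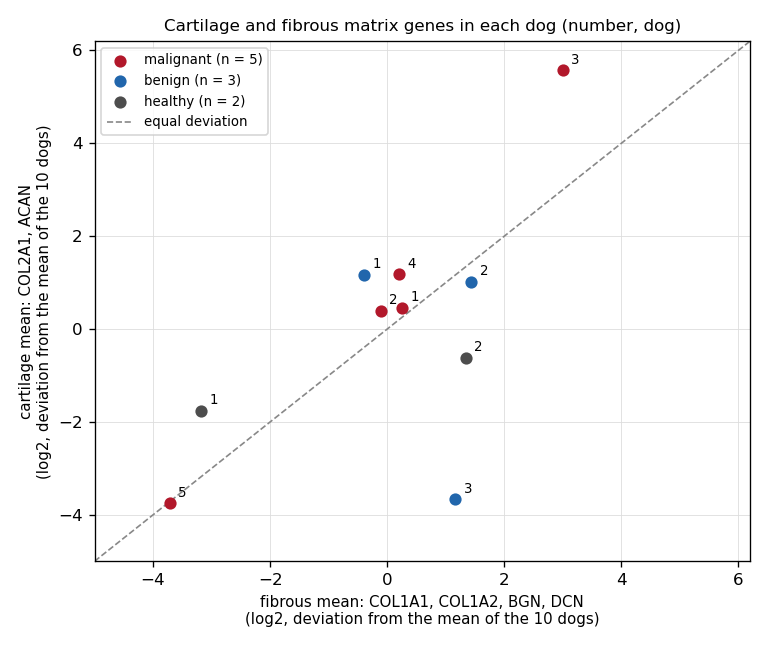
Mean of the cartilage genes COL2A1 and ACAN (vertical) against the mean of the fibrous genes COL1A1, COL1A2, BGN and DCN (horizontal) in each dog, both on the log2 scale as deviations from the mean of the 10 dogs. Malignant dog 3 lies at the upper right (3.0, 5.57), malignant dog 5 at the lower left, and benign dog 3 below the line of equal deviation.

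Markers of cell types were read in the same dogs. The fibroblast markers PDGFRB, THY1, S100A4, DPT and VIM, 5 of 8 listed, had a mean level of 2.05 to 4.78 in malignant, 2.70 to 4.53 in benign and 0.97 to 4.68 in healthy dogs, and each was well above background on arrays of every group. Their mean was 4.78 in malignant dog 3, 4.68 in healthy dog 2 and 0.97 in healthy dog 1, the order in which type I collagen stood in these dogs. Malignant dog 5, low in type I collagen, had a mean of 3.12 and the highest summed signal of these markers of all dogs (8.97 on the log2 scale), with VIM at 8.56, S100A4 at 6.92, DPT at 1.68, THY1 at -0.18 and PDGFRB at -1.37. The epithelial genes CDH1 and KRT19, which encode E-cadherin and a keratin of glandular cells, were at -0.55 and 1.20 in malignant dog 3 and at -0.69 and -3.56 in malignant dog 5, while in the other 8 dogs CDH1 lay between 2.65 and 4.20 and KRT19 between 2.21 and 6.67. CDH1 and KRT19 are among the 7 of 13 epithelial markers measured, and the others are given only through the mean of all 7. That mean level was -2.83 to 1.64 in malignant, -0.92 to 1.37 in benign and 0.09 to 0.52 in healthy dogs. It was -0.94 in malignant dog 3, close to -0.92 in benign dog 3, and so did not set malignant dog 3 apart. The adipocyte gene ADIPOQ was at 4.12 in malignant dog 5 and at or below 0.48 in every other dog. The part of cell composition in the member levels was not tested, and in whole tissue fewer cells of a type and less RNA per cell cannot be told apart.

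Of the other genes of cartilage, matrix assembly and matrix breakdown, 34 of 194 listed genes had a named probe, 33 were tested, and 0 were called in any comparison. Malignant dog 3 was the highest dog at 10 of these 33. For the lists and the cell type markers, measured means that a probe target matched a RefSeq transcript with a symbol. This held for 2353 of the 43603 probes. A listed gene that is not counted can still have a probe on the array. The paper reports COL11A1, a gene of the cartilage list, as up-regulated in malignant tumours. In this sense the cartilage list had 2 of 26 measured. SOX9, the transcription factor of chondrocytes that acts on COL2A1 and ACAN, had 1.67, 1.62, 4.08, 2.76 and -0.21 in malignant, 0.78, 0.67 and 1.00 in benign, and 3.35 and 1.06 in healthy dogs. All 3 benign dogs were below all others except malignant dog 5. COL9A2, a chain of type IX collagen, which lies on type II fibrils, had -3.33, -4.89, 1.83, -1.89 and -6.58 in malignant, -3.75, -4.28 and -4.16 in benign, and -4.33 and -2.47 in healthy dogs. Malignant dog 3 was again the highest dog, and malignant dog 5, not well above background, the lowest.

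The genes that process collagen and start proteoglycan chains had 4 of 27 measured. SERPINH1, a chaperone of collagen, had 4.66, 3.47, 7.77, 5.14 and 4.85 in malignant, 3.96, 6.37 and 5.15 in benign, and 2.27 and 4.47 in healthy dogs, and its malignant minus healthy difference was 1.81 (SE 1.07, adjusted p = 0.919, limma). PLOD1, a lysyl hydroxylase of collagen, had 1.49 in malignant dog 3 as its highest level, and all 3 benign and 4 of 5 malignant dogs were above both healthy dogs, with differences of 1.42 (SE 1.12) and 1.15 (SE 1.03). XYLT2 and XYLT1, which start the sugar chains of proteoglycans, had malignant minus healthy differences of -1.27 and -0.86, with adjusted p of 0.897 and 0.952 (limma).

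In the fibrous list 3 of 31 genes were measured. TNC, tenascin C, was at 3.18 in malignant dog 3 and 2.50 in benign dog 2, and at -3.10 and -0.04 in the healthy dogs. Its benign minus healthy difference was 2.78 (SE 1.52, adjusted p = 0.787, limma), with 3 of 3 benign dogs above both healthy dogs. FBN1, fibrillin 1, had 0.72 and 5.71 in healthy dogs 1 and 2, so that these dogs differed here in the same direction as in type I collagen. COL6A3 had -6.66 and -0.25, the former below the lowest signal well above background on the arrays of healthy dog 1.

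Among the signals, 8 of 34 were measured and tested. CTNNB1, which encodes beta-catenin, was higher in malignant than in healthy tissue by 1.49 (SE 0.65) and PDGFA, a growth factor of fibroblasts, had a benign minus healthy difference of -2.80 (SE 1.23). Both were below an unadjusted p of 0.05, and their adjusted p was 0.849 and 0.729 (limma). BMP7 differed by 1.35 and 1.57, and WNT5A by -1.35 in benign relative to healthy tissue. PTH1R, the receptor of parathyroid hormone and its related peptide, was chosen after its values were seen: it had 4.09 in malignant dog 3 and between -5.67 and -1.75 in the other 9 dogs.

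**Figure D5:**
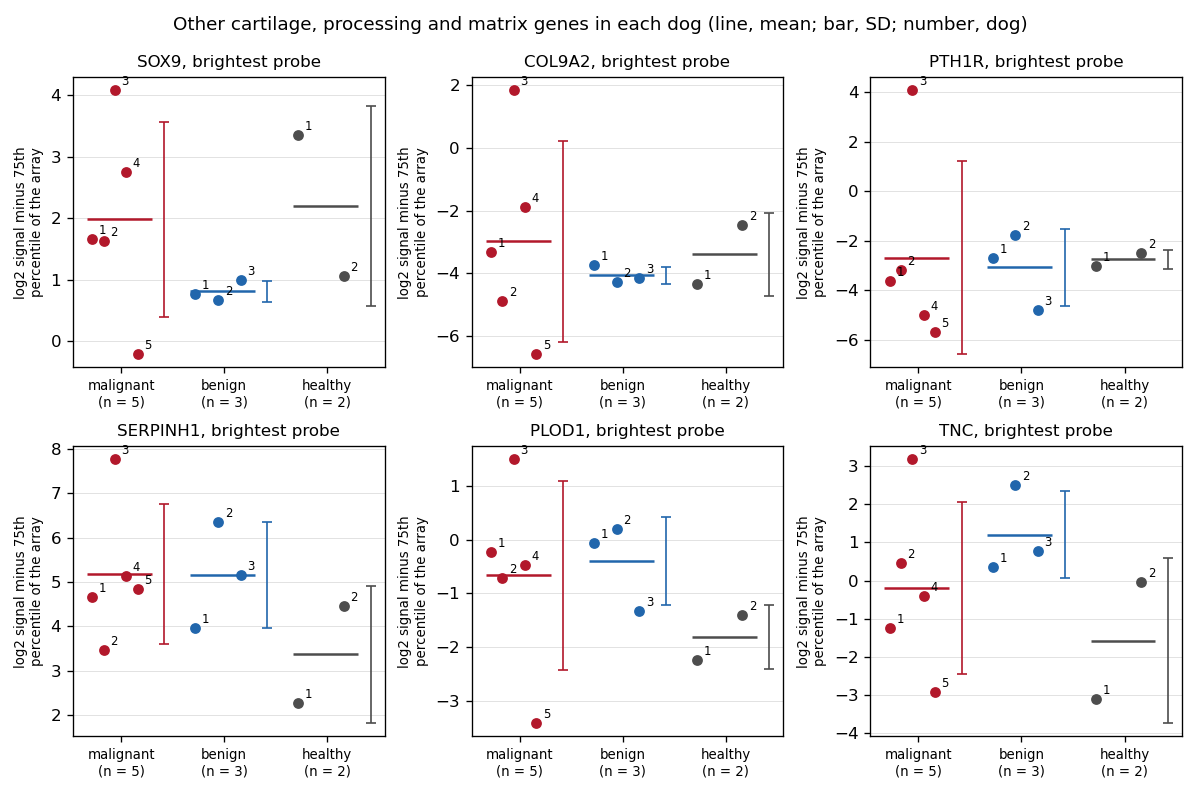
Level of SOX9, COL9A2, PTH1R, SERPINH1, PLOD1 and TNC in each dog at the brightest probe of the gene, as the log2 signal minus the 75th percentile of the array. Points are dogs with their number, lines are means and bars are SD. Malignant dog 3 is the highest point in all 6 panels, which were drawn after the values were seen.

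The enzymes that cut matrix and their inhibitors had 5 of 20 genes measured. MMP9, a gelatinase, had -1.86, 2.04, 0.58, 1.49 and -0.31 in malignant, 0.99, 0.98 and 2.26 in benign, and -6.22 and -2.20 in healthy dogs, so that all 8 tumours were above both healthy dogs. Its differences of 4.60 (SE 1.17) and 5.62 (SE 1.28) had adjusted p of 0.327 and 0.210 (limma). MMP9 was well above background on 17 of 19 arrays. The level of healthy dog 1, which enters both differences, lay below the lowest signal well above background on its arrays (-4.83 and -4.57). MMP3, stromelysin 1, was well above background in malignant dogs 3 and 5 and benign dogs 2 and 3, at -1.0, 3.22, 3.98 and 3.16, and lay between -7.56 and -6.56 in the other dogs. TIMP1 and TIMP2, inhibitors of these enzymes, differed from healthy tissue by 1.04 and 2.66 in malignant and by 2.15 and 1.59 in benign tissue. Of the matrix receptors, 4 of 16 were measured. TLR2, a receptor of the innate immune system that also binds biglycan, was higher by 2.94 (SE 1.06) and 3.14 (SE 1.16), with adjusted p of 0.746 and 0.654 (limma). TLR4 differed by -0.57 and -0.25 and ITGB3 by -0.45 and 0.53, but ITGB3 was well above background on only 5 of 19 arrays. Basement membrane genes had 4 of 23 measured, and COL7A1, the collagen of anchoring fibrils, had a benign minus healthy difference of 3.13 (SE 1.58). COL4A4 and COL4A5 differed from healthy tissue by -0.64 and -0.47 in malignant and by -0.32 and 0.89 in benign tissue. They were well above background on 12 and 14 of 19 arrays. For bone, 4 of 17 were measured and 3 tested, with malignant minus healthy differences of 0.28 for ALPL, 0.58 for CTSK and -0.17 for ACP5.

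The genes whose pattern over the 10 dogs was most like that of each member were found by Pearson's r among 1321 other genes with a symbol, as a description. COL1A1 was closest to COL1A2 (0.99), GNAI2 (0.95) and THY1 (0.93), and COL1A2 to COL1A1, GNAI2 (0.92) and PTGS1 (0.89). The nearest to COL2A1 were TNNI3 (0.93), CDH2 (0.91) and PLOD1 (0.91). Those nearest to ACAN were PMEL (0.95), VPS52 (0.94) and NPC1L1 (0.93). For BGN they were CASP2 (0.97), TMEM190 (0.95) and PLOD1 (0.93). DCN was closest to MS4A2 (0.96), CD34 (0.89) and TCF4 (0.89), none of which was named for another member. With 10 dogs, 5% of the genes compared had an r above 0.65 to 0.76 with a member. Every dog shares its arrays and scaling over all of these genes.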

How the data were processed

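The authors deposited scanner output for single arrays and a table of signals of all arrays, both linear intensity values from Feature Extraction 11.5.1.1. The processed signal has the background taken off. The table the authors deposited equals the median signal intensity of each spot, without background correction or scaling, at all 45220 spots of the 19 arrays. Files used canine RefSeq transcripts as targets.

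From these values, the log2 processed signal minus the 75th percentile of each array was computed, outlier spots and 1417 controls were left out, repeated spots of a probe were averaged, and the mean of a dog's arrays was taken. The labels call these arrays biological duplicates, while the methods describe duplicate arrays of each sample, so they count as 1 dog. Probes well above background on at least 4 arrays (35309 of 43603) entered a joint fit of the 3 groups (lmFit and eBayes of limma, version 3.58.1, under R 4.3.3, with version 1.17.8 of data.table) and were called at an adjusted p of 0.05 (Benjamini-Hochberg). The p-values measure the spread between dogs. Levels entered the fit as measured, also where no array of a dog was above background. Such a signal was set to the lowest signal well above background on the array in only 3 places. These were the folds against undetected dogs, the COL2A1 range given with them and an alternative chosen after seeing the data. Pearson's r served as a description.

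The member genes and lists were chosen with earlier results of these data known. Named genes were all member probes, for each list the 3 genes with the largest difference from healthy tissue in each tumour group, and for each member the 3 genes with the highest r; 1 gene that the rule named is not reported here. Arrays without scanner values (3 of 22) entered only through the table. Alternatives covered background correction (normexp with offset 50 on median signals, since mean signals were not used here), scaling, filter, probes of a gene, arrays of a dog, blocks, an unpaired t-test in place of the methods' paired one, and leaving out each dog. Figures were drawn with matplotlib. No saturated spot was found, 0 columns of values were left unused, and the number of dogs limits the precision given here.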

Additional observations from a re-analysis of the deposited data

Results flagged for a closer look

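In the 5 malignant dogs, malignant dog 3 stood apart from the other 4 at 5 of 18 probes, where the gap to the nearest dog took more than 0.71 of the range of the group. The share was 0.813 at COL2A1 probe 2 (A_11_P050066) and 0.876 at COL2A1 probe 3 (A_11_P053401). For COL1A1 it was 0.718 at probe 2 (A_11_P147113), 0.788 at probe 3 (A_11_P147258) and 0.728 at probe 4 (A_11_P0000019813). These probes belong to 2 genes and are correlated. Chance alone marks about 1 in 20 groups, counting any dog at either end of the range. Malignant dog 3 stood above the other malignant dogs in this way at 2.11% of the 35309 probes. That share counts 1 dog at the upper end only, so it cannot be set against the rate for any dog. The arrays of this dog, on different slides, differed by at most 0.14 at these probes.

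Malignant dog 6 had no scanner values here and was read only in the table of signals of all arrays, in which background is not taken off. On the same log2 scale its level was 5.49 at COL2A1 probe 1 (A_11_P0000020143), 0.433 at probe 2 (A_11_P050066) and -0.778 at probe 3 (A_11_P053401), -1.06 at ACAN probe 2 (A_11_P0000024093) and 1.5 at BGN (A_11_P0000019947). These values were above both healthy dogs in the same table and outside the comparisons of the report. Malignant dog 6 came second of 11 dogs, after malignant dog 3, at all 3 COL2A1 probes and at ACAN probe 2. It had place 3 at ACAN probe 1 with -0.66, below healthy dog 1 at -0.12, and at BGN. At the probes of type I collagen its place ran from 4 to 9, with 9 at COL1A1 probe 1 (3.80) and 4 at COL1A2 probe 1 (7.59). The arrays of malignant dog 6 differed by at most 0.40 at the 18 probes.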

How the results depend on the processing

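No member probe was called under any of the alternatives, and the differences of BGN and of COL2A1 probes 1 and 2 from healthy tissue, of ACAN probe 1 and COL2A1 probe 3 in benign from healthy tissue, and of DCN between tumours kept their direction under all of them. Their size moved more. With normexp the malignant and benign minus healthy differences of COL2A1 were 2.92 and 1.59 at probe 1 and 0.94 and 0.13 at probe 2. Without single dogs they ran from 2.47 to 7.08 and 0.51 to 5.90 at probe 1 and from 0.49 to 2.44 and 0.56 to 2.13 at probe 2. Of 1581 recomputed values 103 changed sign, and the cause was not tested. Alternatives that altered only the test or the filter kept the difference as it was. So did leaving out a dog of a group not compared. These values could not change sign, so the share of sign changes does not measure stability. Healthy tissue had 2 dogs, malignant dog 3 had the lowest signal over background, and some levels lay at or below background. Raising these to the lowest signal well above background, an alternative chosen after seeing the data, left 135 probes called in each comparison with healthy tissue and 0 between tumours. Pancreatic RNA in healthy tissue, histology and cell composition were not separated from the groups. Background correction by normexp moved the median of all probes to -0.19 in malignant and -0.49 in benign tissue relative to healthy tissue, and the table of signals to -0.15 and -0.36.

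The number of probes called in malignant and in benign tissue relative to healthy tissue, 147 and 134, was 47 and 41 over probes well above background on every array, 88 and 81 with 1 probe a gene, 91 and 86 with the mean over the probes of a gene, 89 and 85 with a replicate block, 32 and 0 by the unpaired t-test after Benjamini-Hochberg or Storey correction, 1417 and 1717 by that test unadjusted, and 1525 and 2515 with each array as an independent sample. It was 37 in benign tissue with only the groups compared. Leaving out 1 dog at a time, it ran from 96 (without healthy dog 1) to 950 (without healthy dog 2) and from 86 to 993, with the same dogs. Between malignant and benign tissue, 0 became 47 with each array as an independent sample, 803 by the unadjusted t-test, and 0 to 2 with a dog left out (2 without benign dog 3). Dogs of the same number correlated at r -0.17 to 0.11 in their deviations, and dogs of different numbers at r -0.25 to 0.28. The deviations of the 2 healthy dogs mirror each other by construction, so this check cannot settle whether the numbers pair dogs. Numbers 4 and 5 occur only in malignant dogs here, so the replicate block takes these dogs out of the contrasts. The slide block likewise takes out malignant dog 5.

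With the dog number as a replicate block the differences that changed sign were -0.32 (COL1A1 probe 2) and 0.20 (COL1A2 probe 6) for malignant minus healthy, -0.24 (ACAN probe 2), -0.77 (COL1A1 probe 4), -0.52 (COL1A2 probe 4) and -0.43 (COL1A2 probe 6) for benign minus healthy and 0.54 (COL1A1 probe 1), 0.69 (COL1A1 probe 3), 0.52 (COL1A2 probe 1), 0.50 (COL1A2 probe 2), 0.85 (COL1A2 probe 3), 0.69 (COL1A2 probe 4), 0.49 (COL1A2 probe 5), 0.63 (COL1A2 probe 6) and 0.30 (BGN) for malignant minus benign. With the slide as a block the differences that changed sign were 0.63 (COL1A2 probe 6) for malignant minus healthy, -0.037 (ACAN probe 2) for benign minus healthy and 0.20 (COL1A1 probe 1), 0.30 (COL1A1 probe 3), 0.43 (COL1A2 probe 1), 0.42 (COL1A2 probe 2), 0.62 (COL1A2 probe 3), 0.23 (COL1A2 probe 6) and 0.21 (BGN) for malignant minus benign. With normexp background correction the differences that changed sign were -0.059 (COL1A1 probe 2) and -0.090 (COL1A1 probe 4) for malignant minus healthy, -0.32 (ACAN probe 2), -0.70 (COL1A1 probe 4) and 0.14 (DCN probe 1) for benign minus healthy and 0.032 (COL1A1 probe 3) for malignant minus benign. With quantile normalization the differences that changed sign were -0.049 (COL1A2 probe 4) for malignant minus healthy and 0.52 (DCN probe 1) for benign minus healthy. In the table of signals of all arrays, with or without malignant dog 6 and the second array of malignant dog 5, they were -0.19 (ACAN probe 2), -0.35 (COL1A1 probe 4) and 0.040 (DCN probe 1) for benign minus healthy. With each array as an independent sample the differences that changed sign were 0.14 (COL1A2 probe 6) for malignant minus healthy and 0.032 (COL1A2 probe 3) for malignant minus benign. With the median of each array subtracted the differences that changed sign were 0.041 (COL1A1 probe 2) for benign minus healthy. With the 75th percentile over probes well above background on all arrays the differences that changed sign were -0.0057 (COL1A1 probe 2) for malignant minus healthy.

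Leaving out single dogs, the malignant minus healthy difference ran from -0.29 to 1.66 (COL2A1 probe 3), -2.03 to 0.31 (ACAN probe 1), -0.10 to 1.34 (ACAN probe 2), -2.06 to 4.37 (COL1A1 probe 1), -1.20 to 1.21 (COL1A1 probe 2), -1.31 to 3.13 (COL1A1 probe 3), -1.22 to 2.50 (COL1A1 probe 4), -1.95 to 3.97 (COL1A2 probe 1), -1.78 to 3.72 (COL1A2 probe 2), -1.74 to 4.34 (COL1A2 probe 3), -2.15 to 2.30 (COL1A2 probe 4), -2.39 to 3.38 (COL1A2 probe 5), -2.20 to 1.65 (COL1A2 probe 6), -3.04 to 0.63 (DCN probe 1) and -4.52 to 0.49 (DCN probe 2). The benign minus healthy difference without 1 dog ran from -0.35 to 0.85 (ACAN probe 2), -1.23 to 5.20 (COL1A1 probe 1), -1.16 to 1.13 (COL1A1 probe 2), -0.99 to 3.45 (COL1A1 probe 3), -1.45 to 2.26 (COL1A1 probe 4), -1.48 to 4.43 (COL1A2 probe 1), -1.39 to 4.11 (COL1A2 probe 2), -1.31 to 4.77 (COL1A2 probe 3), -1.82 to 2.63 (COL1A2 probe 4), -1.51 to 4.26 (COL1A2 probe 5), -1.47 to 2.39 (COL1A2 probe 6), -1.92 to 1.75 (DCN probe 1) and -2.85 to 2.16 (DCN probe 2). The malignant minus benign difference without 1 dog ran from -1.13 to 3.90 (COL2A1 probe 1), -0.65 to 1.30 (COL2A1 probe 2), -0.15 to 1.79 (COL2A1 probe 3), -0.012 to 0.89 (ACAN probe 1), -0.39 to 1.13 (ACAN probe 2), -1.74 to 0.19 (COL1A1 probe 1), -1.19 to 0.65 (COL1A1 probe 2), -1.61 to 0.77 (COL1A1 probe 3), -0.89 to 0.74 (COL1A1 probe 4), -1.25 to 0.40 (COL1A2 probe 1), -1.10 to 0.42 (COL1A2 probe 2), -1.57 to 0.62 (COL1A2 probe 3), -1.33 to 0.29 (COL1A2 probe 4), -1.80 to 0.20 (COL1A2 probe 6) and -2.01 to 0.24 (BGN).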
